A study of Mus musculus with 16 samples.

Results

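The 42 genes described here act in the repair of DNA double-strand breaks, the lesion through which ionising radiation chiefly kills cells. They were taken by symbol from a deposited table of 30095 genes, and all 42 were found and were expressed highly enough to be tested. Grouped by role they are 12 genes of homologous recombination, 9 of the Fanconi pathway, 6 of end resection and dissolution, 5 of the damage kinases with their activator Topbp1, 6 of end joining with the kinase gene Prkdc and 4 of break-site chromatin.

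A double-strand break is joined either by end joining, which ligates the broken ends directly, or by homologous recombination, which copies the intact sister chromatid and therefore works in S and G2 phase. The kinases encoded by Atm, Atr and Prkdc sense the damage, and their substrates halt the cell cycle and mark the chromatin around the break. Most of this response is known to act on proteins already present, through phosphorylation, ubiquitylation and recruitment, while several of the recombination genes are transcribed mainly in dividing cells in S phase.

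The RNA came from whole lungs of C57BL/6 mice bearing HKP1 tumours, which grow from a mouse lung adenocarcinoma line. Lungs had received 0, 4 or 8 Gy of radiation, each with an antibody against the checkpoint receptor PD-1 or with IgG, and were taken 24 to 48 hours after radiation. There were 2 libraries at 0 Gy with anti-PD-1 and 3 with IgG, 3 at 4 Gy with anti-PD-1 and 2 with IgG, and 3 at 8 Gy with anti-PD-1 and 3 with IgG. Each of the 16 libraries pooled 3 to 4 mice, and the tests measure the spread between pools. In such bulk RNA, fewer cells of a type and less RNA per cell cannot be told apart, and tumour and host lung are measured together.

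Values are CPM, read counts scaled to library size, and 1 read was worth between 0.0155 and 0.0418 CPM, so the lowest value of any of the 42 genes, 2.19 CPM for Fancf, rests on many reads. Differences are log2 fold changes of CPM plus 0.5 with their standard error, from limma over 17546 genes, and a gene is said to have risen or fallen where its Benjamini-Hochberg adjusted p was below 0.05. On the first principal component, which held 46.66% of the variance, all 3 libraries at 4 Gy with anti-PD-1 lay at the low end. Replicates 2 and 3 lay apart, at −81.51 and −98.31. Replicate 1 was next, at −46.76, against −32.88 to 51.9 for the libraries of the other groups. Results at 4 Gy are therefore given with and without replicates 2 and 3. Without them replicate 1 is the lone library of its group, and fewer markers of lung epithelium and endothelium were called at 4 Gy too. For 4 Gy against 0 Gy, low counts in that setting were not limited to the repair genes. This does not extend to 8 Gy against 4 Gy, where many of those markers were still called. Library numbers in the titles ran over 13 to 17 at 0 Gy, 26 to 30 at 4 Gy and 31 to 36 at 8 Gy. Within each dose the IgG libraries came before those with anti-PD-1. Anything that followed those numbers therefore cannot be told apart from dose or from antibody. Cdkn1a, the p53 target that encodes the inhibitor p21, served as a check of the labels of irradiated against unirradiated lungs. It had 50.7 ± 9.22 CPM at 0 Gy, 195 ± 61.3 CPM at 4 Gy and 160 ± 33.1 CPM at 8 Gy (SD, n = 5, 5 and 6 libraries). Against 0 Gy, Cdkn1a rose by 1.81 ± 0.13 at 4 Gy (adjusted p = 2.46e-05) and by 1.63 ± 0.13 at 8 Gy (adjusted p = 5.09e-05). It cannot check 8 Gy against 4 Gy, where it differed by −0.18 ± 0.13 (limma, adjusted p = 0.262). From 4 to 8 Gy its mean went from 138 to 189 CPM with IgG, but from 233 to 130 CPM with anti-PD-1. Lung markers were present in every library, with 13 alveolar type 2 markers summing to between 5327 and 22047 CPM.

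In unirradiated lungs the 42 genes were of modest abundance, with a median of 15.7 CPM. Per kilobase of exon, the highest mean level at 0 Gy was that of Xrcc5, which encodes the Ku80 subunit of the end-binding Ku dimer, at 15.6 CPM per kb. It was followed by Topbp1, the activator of the kinase ATR, at 10.8 CPM per kb, the chromatin scaffold gene Mdc1 at 9.26 CPM per kb and Rad50, which encodes a subunit of the MRN end-sensing complex, at 7.03 CPM per kb. Xrcc6, the gene for the Ku70 partner of Xrcc5, had 6.24 CPM per kb. Lengths count all annotated exons of a gene, so these levels depend on the annotation. The deposited spans of 41 of the 42 genes matched the GENCODE M21 annotation used for length. That of Xrcc5 did not, so its length was taken by symbol, and its first place rests on that length. The recombination mediators were among the lowest per kilobase, with 1.31 CPM per kb for Brca2, 0.921 CPM per kb for Palb2 and 0.684 CPM per kb for Rad51c, the lowest of the 42. Exons of 20 of the genes overlap those of another gene, for 19 of them on the opposite strand, and whether the counting used strand is not given in the sources used here, so reads of such pairs may be shared.

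**Figure D1:**
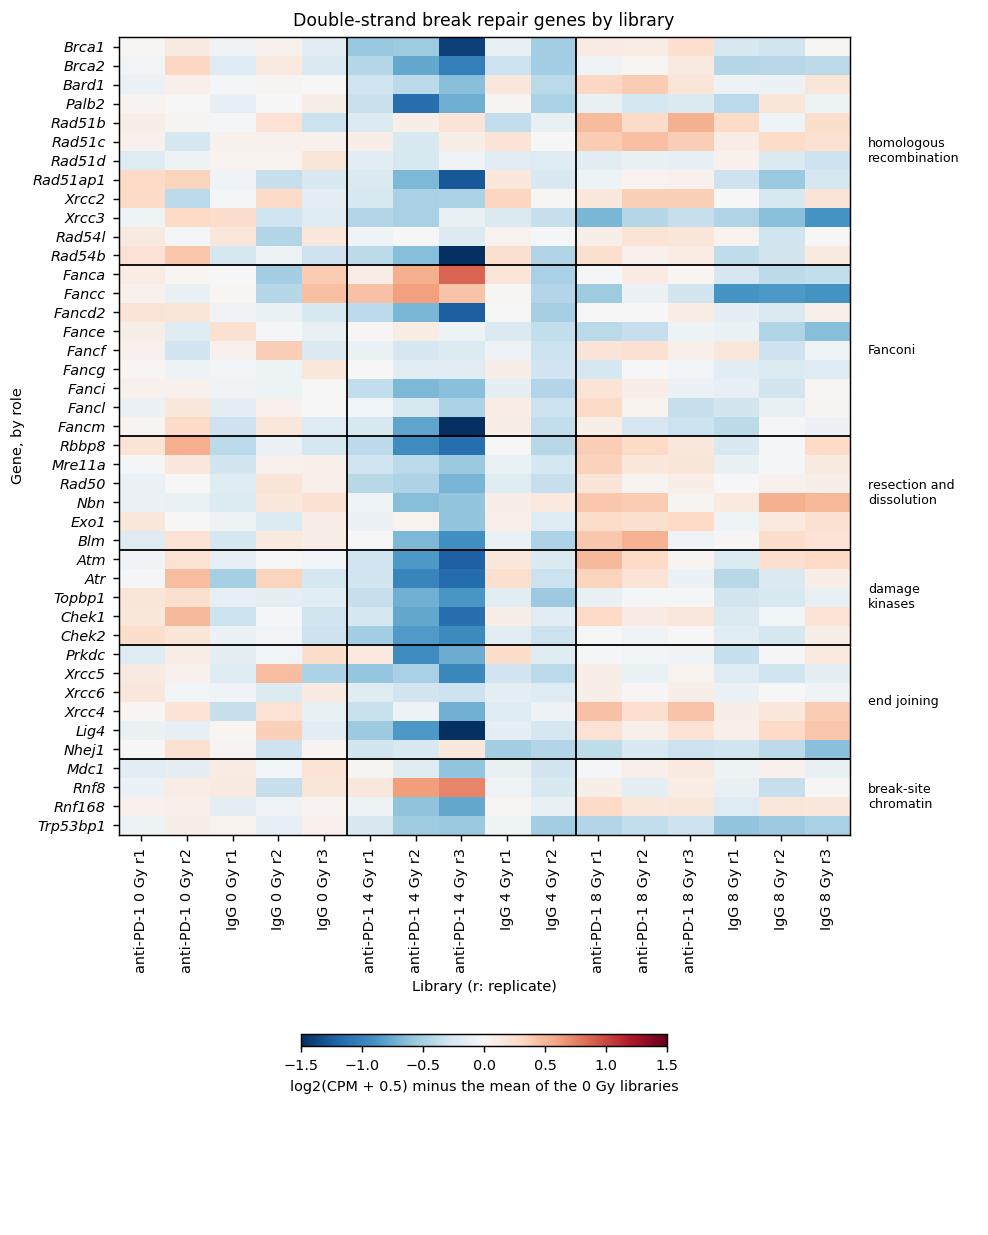
A row is 1 of the 42 genes, grouped by role, and each column is 1 library. Colour gives log2(CPM + 0.5) minus the mean of the 0 Gy libraries. The 2 columns of anti-PD-1 at 4 Gy, replicates 2 and 3, are the darkest blue, with medians of −0.49 and −0.63, while the columns at 8 Gy have medians between −0.21 and 0.11 and are blue in the row of Trp53bp1.

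At 8 Gy none of the 42 repair genes rose against 0 Gy, and 3 fell. These were Trp53bp1, Xrcc3 and Fancc. Among all genes tested, 4.68% rose and 16.1% fell, so the 3 called, 7.14% of the repair genes, were a smaller share than the background, and 20.7% of all genes changed in either direction. In position, 19 of the 42 lay higher and 23 lower, with a median difference of −0.05, against −0.09 over all genes. For 36 of the 42 genes the 95% interval ended below a 1.5-fold rise, and for 36 it ended above a 1.5-fold fall. Counted at an unadjusted p below 0.05, 7 of the 42 differed. Counts at that threshold, here and below, stand without the share of all genes at it, so no excess can be read from them.

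Trp53bp1 encodes the chromatin reader 53BP1, which shields broken ends from resection and steers them to end joining. Its lowest, median and highest values at 8 Gy were 40.7, 44.4 and 49.4 CPM, against 58.3 and 65.3 CPM with anti-PD-1 and 64.0, 56.3 and 64.1 CPM with IgG at 0 Gy. Every library at 8 Gy lay below every library at 0 Gy, a pattern seen in 4.91% of all genes. Trp53bp1 averaged 44.7 ± 3.27 CPM over the 6 libraries at 8 Gy and 61.6 ± 4.04 CPM over the 5 at 0 Gy (SD), a fall of −0.46 ± 0.10 (limma, adjusted p = 0.00661). This call held in all 26 alternatives, with values between −0.50 and −0.35. Its exons overlap those of Tubgcp4 on the other strand, which differed by −0.02 ± 0.10 (adjusted p = 0.921).

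Xrcc3, a gene of homologous recombination, had a lowest, median and highest value of 5.35, 6.93 and 8.00 CPM at 8 Gy, against 9.82 and 12.7 CPM with anti-PD-1 and 12.4, 8.23 and 8.96 CPM with IgG at 0 Gy. Here too the 8 Gy libraries were all below the 0 Gy libraries. The fall was −0.59 ± 0.15 (adjusted p = 0.0130). It was no longer called after quantile normalization or without replicate 2 of anti-PD-1 at 0 Gy, with values between −0.68 and −0.42 over the alternatives. Klc1, whose exons overlap it on the other strand, lay at −0.30 ± 0.13 (adjusted p = 0.118).

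Fancc encodes a subunit of the Fanconi core complex, the ubiquitin ligase that marks stalled forks for repair. At 8 Gy it had a lowest, median and highest value of 9.15, 10.6 and 16.3 CPM, against 18.3 and 16.1 CPM with anti-PD-1 and 17.7, 12.9 and 23.9 CPM with IgG at 0 Gy. The 3 IgG libraries at 8 Gy were the lowest of all 16, while the anti-PD-1 libraries at 8 Gy, with 11.9, 16.3 and 14.3 CPM, overlapped the 0 Gy range. The fall was −0.59 ± 0.15 (adjusted p = 0.0151), and it was not called without replicate 1 of anti-PD-1 at 0 Gy. Aopep, whose exons overlap those of Fancc on the other strand, fell as well, by −0.55 ± 0.15 (limma, adjusted p = 0.0201). Where reads were counted without strand, some reads of the 2 genes may be shared. How large a part that would be was not measured. Within IgG alone 2 of the 42 were called, Fancc at −0.89 ± 0.20 (adjusted p = 0.0159) and Trp53bp1 at −0.54 ± 0.13 (adjusted p = 0.0241), where 9.12% of all genes fell, 1.44% rose and 10.6% changed. That count of 2 was 0 without IgG replicate 1 at 0 Gy, replicate 2 or 3 at 8 Gy, or when the 2 groups were fitted alone, and 3 without IgG replicate 2 at 0 Gy. With anti-PD-1 alone 0 of the 42 were called by limma and 3 had an unadjusted p below 0.05, against 2.83% of all genes called. The difference between the antibodies was called for 0 of the 42 genes and for 0% of all genes, with 0 of the 42 at an unadjusted p below 0.05.

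Markers of other cells moved at 8 Gy as well. Against 0 Gy, 8 of 12 alveolar type 1, 6 of 15 ciliated and 8 of 17 fibroblast and matrix markers fell, and 10 of 18 monocyte and macrophage and all 7 red blood cell markers rose. Red blood cell markers summed to 6482 to 22297 CPM at 8 Gy, against 1961 to 21926 CPM at 0 Gy, and monocyte and macrophage markers to 3630 to 5285 CPM at 8 Gy, against 2553 to 3940 CPM at 0 Gy. Fibroblast and matrix markers summed to 3710 to 5400 CPM at 8 Gy, against 4436 to 6840 CPM at 0 Gy. Their part in the 3 falls was not tested. Mitosis genes were called in 0 of 26 cases by limma, with 2 at an unadjusted p below 0.05, and Mki67 had 265 ± 43.0 CPM at 8 Gy, against 271 ± 27.2 CPM at 0 Gy.

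Brca1, Atm and Chek1 did not pass the test at 8 Gy. Brca1, a ubiquitin ligase subunit that promotes recombination, had a lowest, median and highest value of 25.7, 33.2 and 37.9 CPM at 8 Gy, against 32.1 and 34.7 CPM with anti-PD-1 and 30.5, 33 and 28.1 CPM with IgG at 0 Gy. The 0 Gy values lie inside the 8 Gy range, and the difference was −0.02 ± 0.15 (adjusted p = 0.954). Atm, the first kinase to respond to breaks, had values of 24.2, 33.9 and 39.5 CPM at 8 Gy, against 26.9 and 32.5 CPM with anti-PD-1 and 25.6, 28.1 and 27.1 CPM with IgG at 0 Gy. Its difference was 0.18 ± 0.16 (adjusted p = 0.460), with a 95% interval from −0.17 to 0.53. Chek1, the kinase that ATR activates to hold cells before mitosis, differed by 0.04 ± 0.16 (adjusted p = 0.888), with 8.43, 10.9 and 12.2 CPM as lowest, median and highest at 8 Gy, against 11.1 and 14 CPM with anti-PD-1 and 7.80, 9.63 and 7.95 CPM with IgG at 0 Gy. These ranges overlap for both kinases.

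Of the other genes described by library, Prkdc, Xrcc5, Rad51ap1 and Fancd2 did not pass either. Prkdc, the catalytic kinase of end joining, had a lowest, median and highest value of 12, 15 and 17 CPM at 8 Gy, against 13.4 and 16.7 CPM with anti-PD-1 and 13.8, 15 and 18.6 CPM with IgG at 0 Gy, a difference of −0.05 ± 0.18 (adjusted p = 0.868). Xrcc5 had 31.5, 35.6 and 41.7 CPM at 8 Gy, against 42.9 and 40.9 CPM with anti-PD-1 and 34, 53.9 and 27.8 CPM with IgG at 0 Gy, a difference of −0.12 ± 0.15 (adjusted p = 0.609). The 8 Gy range of Xrcc5 lies inside its 0 Gy range, and that of Prkdc overlaps it. Rad51ap1, which acts in strand pairing during recombination, had 8.78, 11.7 and 13.8 CPM at 8 Gy, against 16.3 and 16.8 CPM with anti-PD-1 and 12.6, 10.3 and 11.2 CPM with IgG at 0 Gy, a difference of −0.23 ± 0.16 (adjusted p = 0.340). Fancd2, the protein that the Fanconi ligase ubiquitylates, had 13.9, 16.2 and 17.6 CPM at 8 Gy, against 18.6 and 18.5 CPM with anti-PD-1 and 15.6, 15.1 and 13.8 CPM with IgG at 0 Gy, a difference of −0.06 ± 0.15 (adjusted p = 0.810). For both, the highest values at 0 Gy were those with anti-PD-1.

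Some genes lay higher without passing the test. Rad51c, another recombination gene, was above every 0 Gy library in every 8 Gy library, which 1.54% of all genes were. It had 3.28, 3.85 and 4.26 CPM as lowest, median and highest at 8 Gy, against 3.14 and 2.41 CPM with anti-PD-1 and 3.14, 3.16 and 3.14 CPM with IgG at 0 Gy, a difference of 0.32 ± 0.13 (adjusted p = 0.0877). All 6 resection and dissolution genes lay higher, between 0.08 for Rbbp8 and 0.35 ± 0.14 for Nbn (adjusted p = 0.0955), the gene for the NBS1 subunit of MRN, and 0 of the 6 were called, with 1 at an unadjusted p below 0.05. In the Fanconi group 8 of 9 lay lower. Direction at this level depends on scaling: with library medians set equal, or after quantile normalization, the median over all genes moved by more than 0.1, to 0.02 and 0.03, and that of the repair genes to 0.06 and 0.09, the other side of 0. Under both, Rad51c (0.43 and 0.57, adjusted p = 0.0291 and 0.0110) and Nbn (0.46 and 0.48, adjusted p = 0.0286 and 0.0235) were called higher. The split over all genes moved likewise, with 1568 higher and 1915 lower after setting medians equal and 1421 higher and 1764 lower after quantile normalization, against 822 higher and 2818 lower in the values as deposited.

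**Figure D2:**
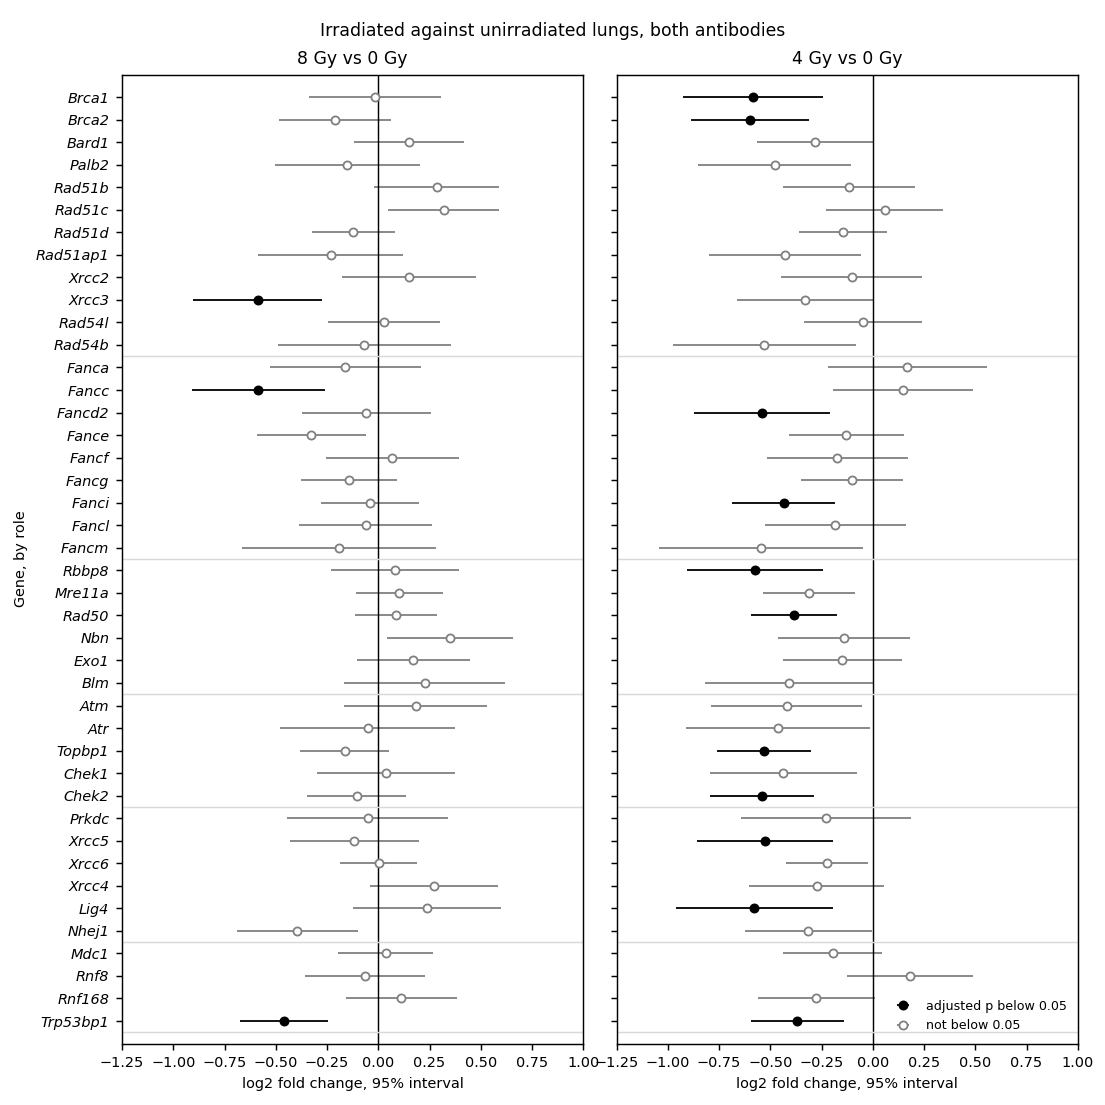
Log2 fold changes with 95% intervals of the 42 genes, at 8 Gy against 0 Gy on the left and at 4 Gy against 0 Gy on the right, over both antibodies. Filled points passed the adjusted threshold: 3 at 8 Gy and 11 at 4 Gy, all on the lower side.

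At 4 Gy most of the repair genes lay lower. Of the 42, 11 fell and 0 rose against 0 Gy, which is 26.2% of them, where 12.2% of all genes fell, 5.33% rose and 17.5% changed. In position 38 of the 42 lay lower, with a median of −0.31, against −0.14 over all genes, and for all 42 the 95% interval ended below a 1.5-fold rise. The 11 were Brca1 and Brca2 of homologous recombination, Fancd2 and Fanci of the Fanconi pathway, Rbbp8 and Rad50 of resection, Topbp1 and Chek2 of the damage kinases, Xrcc5 and Lig4 of end joining, and Trp53bp1. Without replicates 2 and 3 of anti-PD-1 at 4 Gy, which left replicate 1 alone in that group, these calls were lost and the median was −0.20. Leaving out IgG replicate 2, which likewise left a lone IgG library at 4 Gy, also removed the calls. Fitting only the 4 Gy and 0 Gy groups, with all their libraries, left 0 of the 42 called. Measures of library quality moved with this comparison. Mitochondrial genes held 4.14% to 6.54% of the CPM in every 4 Gy library, against 1.01% to 3.73% at 0 Gy, and 1.69% to 8.23% at 8 Gy. The 2 libraries that lay apart had 6086 and 5315 genes without reads, against 2273 to 3851 in the other libraries of the study. They also held fewer reads than the other 4 Gy libraries, with 1 read worth 0.0418 and 0.0319 CPM, against 0.0155 to 0.0185 CPM. Few reads were not limited to them. At 0 and 8 Gy 1 read was worth 0.01725 to 0.0334 CPM, the highest in anti-PD-1 replicate 1 at 0 Gy. The part of these measures of library quality in the falls was not tested.

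Counts of repair genes in alternative runs are mostly given without the share of all genes called in the same run. Whether their shifts were particular to the repair genes cannot be read from them. Other single libraries moved the count as well. It was 21 without anti-PD-1 replicate 1 at 4 Gy, 6 without replicate 2 and 4 without replicate 3 of that group. Among the unirradiated libraries, it was 4 and 2 without anti-PD-1 replicates 1 and 2, and 6 and 7 without IgG replicates 1 and 2. None of the 11 calls held in every alternative run. Setting library medians equal left 5 lower and 0 higher, with a median of −0.20, and quantile normalization left 7 lower and 0 higher, with a median of −0.23. The median over all genes was −0.03 and −0.05 under those scalings, and they gave 1275 genes higher and 798 lower with medians equal, and 1343 higher and 1061 lower after quantile normalization, against 935 higher and 2141 lower as deposited.

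Promoters are shown for 3 genes of the S-phase group that had the lowest p at 4 Gy, with matches to 4 short E2F-like motifs, TTTCCCG or TTTCGCG or TTTGCCG or TTTGGCG on either strand, in capitals. E2F factors are known to drive many S-phase genes. Each sequence is the 250 bases before the RefSeq start on GRCm38.p6, at chr9:103305077-103305326 on the plus strand for Topbp1, chr5:150522371-150522620 on the plus strand for Brca2, chr7:79392088-79392337 on the plus strand for Fanci and chr2:121271408-121271657 on the minus strand for Trp53bp1.
Topbp1: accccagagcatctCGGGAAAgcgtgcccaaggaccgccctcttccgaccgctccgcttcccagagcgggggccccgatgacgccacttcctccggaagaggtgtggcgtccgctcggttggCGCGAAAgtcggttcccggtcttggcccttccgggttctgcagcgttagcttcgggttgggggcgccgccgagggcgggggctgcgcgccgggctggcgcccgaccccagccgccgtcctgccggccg
Brca2: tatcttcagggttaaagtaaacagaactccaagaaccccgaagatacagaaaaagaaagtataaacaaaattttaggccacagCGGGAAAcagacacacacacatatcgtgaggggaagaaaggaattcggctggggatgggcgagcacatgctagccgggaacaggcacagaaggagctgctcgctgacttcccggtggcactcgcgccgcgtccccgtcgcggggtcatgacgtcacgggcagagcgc
Fanci: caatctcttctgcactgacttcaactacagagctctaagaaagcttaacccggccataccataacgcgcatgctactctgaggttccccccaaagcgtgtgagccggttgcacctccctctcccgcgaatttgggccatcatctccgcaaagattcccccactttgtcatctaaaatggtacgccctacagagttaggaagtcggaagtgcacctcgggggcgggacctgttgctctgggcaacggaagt
Trp53bp1: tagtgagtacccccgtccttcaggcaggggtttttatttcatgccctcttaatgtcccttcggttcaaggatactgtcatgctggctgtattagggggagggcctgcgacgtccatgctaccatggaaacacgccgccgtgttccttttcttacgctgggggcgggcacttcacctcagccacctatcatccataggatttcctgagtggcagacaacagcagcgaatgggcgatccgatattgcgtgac
Trp53bp1 stands beside them as a gene outside that group, chosen after its values were seen, because it fell at both doses. Topbp1 has 2 matches, whose first bases lie at −236 and −128 from the RefSeq start, Brca2 has 1, at −167, and Fanci and Trp53bp1 have none in these windows. The RefSeq starts of Topbp1 and Fanci lie inside the deposited gene spans, which begin at 103305215 and 79391929. RefSeq windows were found for 33 of the 42 genes. Of these 7 held an E2F-like match (21.2%), against 8.7% of 11848 windows of tested genes, and 3 of 10 in the S-phase group and 4 of 23 in the others did. The CCAAT box was in 17 of 33 (51.5%), against 36.1% of all windows, and the letters TTTGAA of the cell cycle homology region were in 2 of 33 (6.1%), against 11.3%. A match is a run of letters and not a measured site.

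Topbp1 had the lowest p of the 42. It had 94.5, 73.0 and 65.8 CPM with anti-PD-1 and 108 and 82.5 CPM with IgG at 4 Gy, against 136 and 142 CPM with anti-PD-1 and 110, 110 and 108 CPM with IgG at 0 Gy. Its 4 Gy libraries were all below its 0 Gy libraries, a pattern of 4.23% of all genes (1.73% lay wholly above, and 0 of the 42), although the nearest 2 are both 108 CPM when rounded. The fall was −0.53 ± 0.11 (adjusted p = 0.0128), and −0.39 at the smallest over the alternatives. Chek2, the kinase that relays the ATM signal, had 12.4, 9.70 and 8.97 CPM with anti-PD-1 and 16 and 14.2 CPM with IgG at 4 Gy, against 21.6 and 20.3 CPM with anti-PD-1 and 16.8, 17.3 and 14.4 CPM with IgG at 0 Gy. The 3 anti-PD-1 libraries were below all others, 1 of the 2 IgG libraries lay inside the 0 Gy range, and the fall was −0.54 ± 0.12 (adjusted p = 0.0154).

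Brca2, a mediator of homologous recombination, had 13, 10.2 and 8.40 CPM with anti-PD-1 and 14 and 12.3 CPM with IgG at 4 Gy, against 17.1 and 22.1 CPM with anti-PD-1 and 15.3, 19.6 and 15.1 CPM with IgG at 0 Gy. The doses did not overlap, and the fall was −0.60 ± 0.13 (adjusted p = 0.0169). Fanci, the partner of Fancd2 in the clamp that the Fanconi ligase modifies, had 9.51, 7.63 and 7.87 CPM with anti-PD-1 and 11.1 and 9.03 CPM with IgG at 4 Gy, against 13 and 13.1 CPM with anti-PD-1 and 11.9, 11.8 and 12.4 CPM with IgG at 0 Gy. It too did not overlap, with a fall of −0.44 ± 0.12 (adjusted p = 0.0281). Fancd2 itself had 12.2, 9.93 and 6.61 CPM with anti-PD-1 and 16.3 and 11.3 CPM with IgG at 4 Gy, against 13.8 to 18.6 CPM at 0 Gy, a fall of −0.54 ± 0.15 (adjusted p = 0.0326). The higher of its IgG libraries lay inside the 0 Gy range.

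Rad50 had 28, 27.3 and 23.1 CPM with anti-PD-1 and 33 and 29.6 CPM with IgG at 4 Gy, against 35.3 and 37.6 CPM with anti-PD-1 and 33.1, 43.1 and 39.7 CPM with IgG at 0 Gy. Every 4 Gy value was lower than every 0 Gy value, and the fall was −0.39 ± 0.10 (adjusted p = 0.0241). Rbbp8, which encodes the resection starter CtIP, had 37.4, 25.5 and 22.4 CPM with anti-PD-1 and 49.7 and 36.9 CPM with IgG at 4 Gy, against 57.2 and 72.2 CPM with anti-PD-1 and 37.3, 46.6 and 41.1 CPM with IgG at 0 Gy. For Rbbp8 the IgG libraries of both doses overlapped, while the anti-PD-1 libraries of the 2 doses lay well apart, and the fall was −0.58 ± 0.15 (adjusted p = 0.0277).

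Brca1 had 21.2, 21.7 and 11.7 CPM with anti-PD-1 and 29.2 and 22.1 CPM with IgG at 4 Gy, a mean of 21.2 ± 6.25 CPM, against 31.7 ± 2.49 CPM at 0 Gy (SD, n = 5 libraries each). The fall was −0.59 ± 0.16 (adjusted p = 0.0284), and 1 IgG library at 4 Gy lay inside the 0 Gy range. Xrcc5 had 25.8, 27.8 and 19.7 CPM with anti-PD-1 and 31.8 and 29.4 CPM with IgG at 4 Gy and changed by −0.53 ± 0.16 (adjusted p = 0.0352), with 1 low 0 Gy library, at 27.8 CPM, inside the 4 Gy range. Trp53bp1 had 52.1, 42.3 and 41.5 CPM with anti-PD-1 and 58.9 and 42.7 CPM with IgG at 4 Gy and changed by −0.37 ± 0.11 (adjusted p = 0.0331), overlapping the 0 Gy range through 1 IgG library. Tubgcp4, which overlaps it, was also lower at 4 Gy (−0.35 ± 0.11, adjusted p = 0.0425).

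Lig4, the ligase of end joining, had 6.37, 5.02 and 2.91 CPM with anti-PD-1 and 8.60 and 7.92 CPM with IgG at 4 Gy, against 8.88 and 8.74 CPM with anti-PD-1 and 9.78, 12.4 and 8.45 CPM with IgG at 0 Gy. Only the higher IgG library at 4 Gy reached the 0 Gy range, and the fall was −0.58 ± 0.18 (adjusted p = 0.0407), a call that held in 6 of 26 alternatives. Of the 42, 4 lay higher at 4 Gy, Fanca at 0.17, Fancc at 0.15, Rnf8 at 0.18 and Rad51c at 0.06, and none of these was called.

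Of the genes followed in every library, 4 did not pass at 4 Gy. Atm had 22.7, 15.1 and 11.7 CPM with anti-PD-1 and 31.6 and 24.0 CPM with IgG, a difference of −0.42 ± 0.17 (adjusted p = 0.0915). Chek1 had 8.12, 5.56 and 4.22 CPM with anti-PD-1 and 10.5 and 8.70 CPM with IgG, a difference of −0.44 ± 0.17 (adjusted p = 0.0752). Rad51ap1 had 11.2, 8.11 and 5.17 CPM with anti-PD-1 and 14.8 and 11.1 CPM with IgG, a difference of −0.43 ± 0.17 (adjusted p = 0.0879). In all 3 of these genes the IgG libraries at 4 Gy lay within or close to the 0 Gy values, and the low values were those of anti-PD-1 replicates 2 and 3. Prkdc had 17.1, 7.78 and 9.01 CPM with anti-PD-1 and 18.5 and 13.5 CPM with IgG, a difference of −0.23 ± 0.19 (adjusted p = 0.394), with anti-PD-1 replicates 2 and 3 low.

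**Figure D3:**
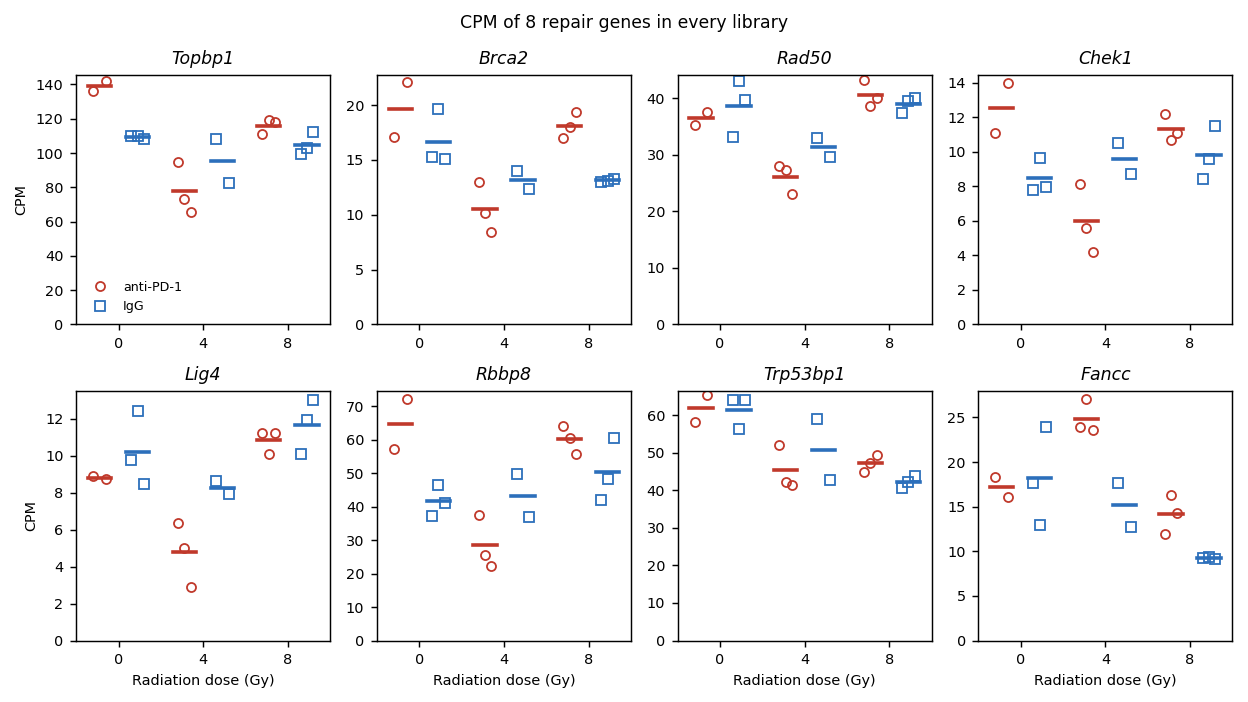
CPM of 8 of the genes (vertical axes, from 0) against radiation dose in Gy, with anti-PD-1 libraries as red circles, IgG libraries as blue squares and group means as bars. The lowest point of each panel is an anti-PD-1 circle at 4 Gy, except in those of Trp53bp1 and Fancc. Fancc at 8 Gy shows the 3 IgG squares close together near 9.15 to 9.40 CPM.

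The S-phase group, 14 of the 42 whose transcription is known to be tied to S phase, had 5 genes fall at 4 Gy with a median of −0.43. The other 28 had 6 fall with a median of −0.27, and the difference between these groups of genes was not tested. Cell cycle genes were counted beside them. Of 26 mitosis genes 15 fell (57.7%, median −0.50) and of 24 DNA replication genes 4 fell (16.7%, median −0.21), where 12.2% of all genes did, and the proliferation marker Mki67 averaged 189 ± 33.5 CPM in 4 Gy lungs and 271 ± 27.2 CPM in 0 Gy lungs (SD), at −0.52 ± 0.12 (adjusted p = 0.0173). Without the 2 libraries that lay apart, 0 of the mitosis genes and 0 of the replication genes were called, with medians of −0.36 and −0.16. Markers of lung epithelium and endothelium moved the other way: at 4 Gy against 0 Gy, 10 of 13 alveolar type 2, 6 of 12 alveolar type 1, 10 of 17 club cell, 7 of 15 ciliated and 11 of 20 endothelial markers rose. The alveolar type 1 markers summed to between 1392 and 1869 CPM at 4 Gy, against 484 to 1127 CPM at 0 Gy, and the endothelial markers to between 755 and 1477 CPM at 4 Gy, against 240 to 946 CPM at 0 Gy. The alveolar type 2 sums were 10966 to 22047 CPM at 4 Gy, against 5327 to 10129 CPM at 0 Gy, and the club cell sums 8073 to 24080 CPM at 4 Gy, against 1517 to 6754 CPM at 0 Gy. Ciliated markers summed to 162 to 671 CPM at 4 Gy, against 43.8 to 256 CPM at 0 Gy, and no marker of any list was without reads in any library. Of 17 fibroblast and matrix markers 3 rose and 4 fell, with sums of 3579 to 4732 CPM at 4 Gy, against 4436 to 6840 CPM at 0 Gy. Of 9 neutrophil markers tested 4 fell, and of 7 red blood cell markers 2 rose. Without the 2 libraries that lay apart, 2 of the 17 club cell markers were called and 0 of the alveolar, ciliated and endothelial ones, with medians between 0.92 and 1.35. The part of tissue composition and of cell cycling in the fall of the repair genes was not tested.

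**Figure D4:**
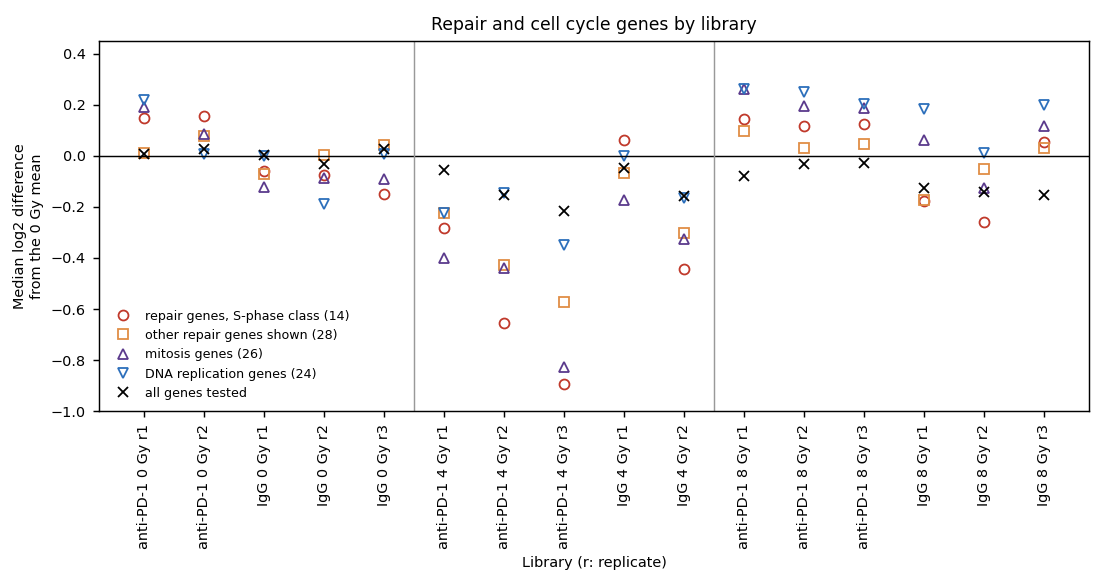
Median log2 difference from the 0 Gy mean, per library, for the repair genes of the S-phase group, the other repair genes, mitosis genes, DNA replication genes and all genes tested. In anti-PD-1 replicate 3 at 4 Gy the S-phase repair genes lie at −0.89 and the mitosis genes at −0.83, against −0.22 for all genes. In IgG replicate 1 at 4 Gy the S-phase repair genes lie at 0.06.

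Within the antibody arms the counts at 4 Gy were unlike. With anti-PD-1, 20 of the 42 genes fell against 0 Gy and 0 rose, where 25.9% of all genes fell, 13.4% rose and 39.3% changed, with a median of −0.47 for the repair genes. Among the 20 were Atm, Atr, Chek1, Chek2 and the ATR activator gene Topbp1, the 5 genes grouped as damage kinases, between −0.85 for Topbp1 and −1.05 for Chek1, while the kinase gene Prkdc, grouped with end joining, was not called (−0.47 ± 0.27, adjusted p = 0.181). They also held 5 of 12 recombination genes, 3 of 9 Fanconi genes, 3 of 6 resection genes, 2 of 6 end joining genes and 2 of 4 chromatin genes. The lowest was Rbbp8 at −1.20 ± 0.22 (adjusted p = 0.00408), followed by the recombination helicase gene Rad54b at −1.17 ± 0.29 (adjusted p = 0.00936). Both other scalings added 2 genes called higher, with 15 lower after setting medians equal and 16 lower after quantile normalization. The count was 3 without replicate 2 and 12 without replicate 1 of the unirradiated anti-PD-1 libraries, 10 without replicate 3 of the irradiated ones, and 11 when only these 2 groups were fitted. With replicate 1 as the lone anti-PD-1 library at 4 Gy, assumed to vary like the other groups, 0 were called and the median was −0.32. With IgG, 0 of the 42 were called by limma at 4 Gy and 0 had an unadjusted p below 0.05, with 0.00570% of all genes called and a median of −0.12.

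**Figure D5:**
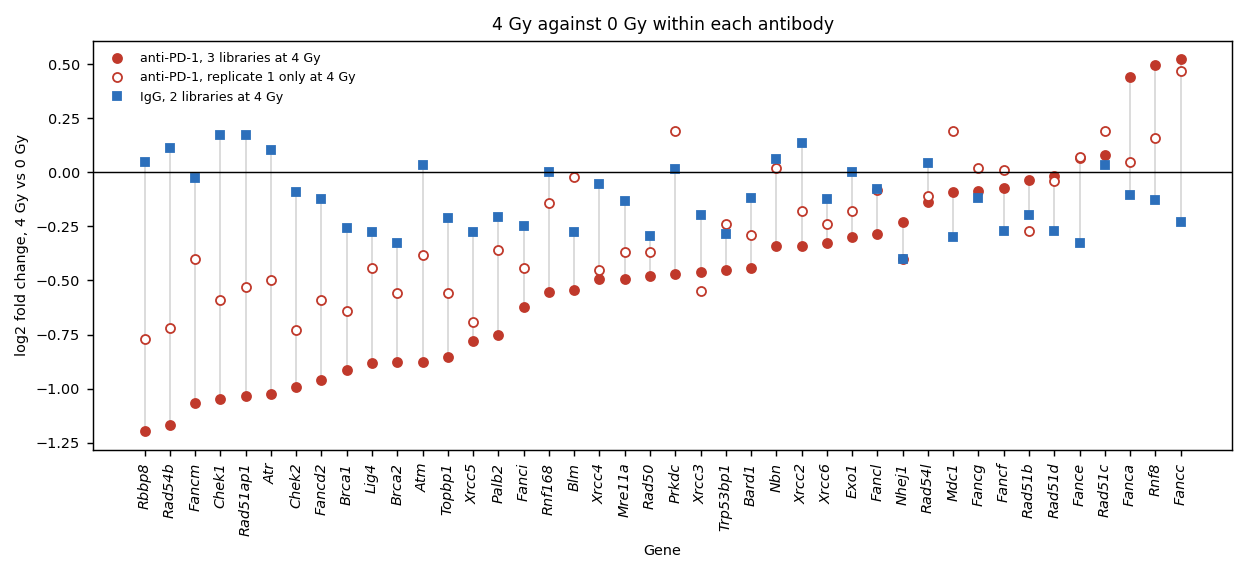
Log2 fold change at 4 Gy against 0 Gy for each of the 42 genes, with anti-PD-1 (filled red circles), anti-PD-1 replicate 1 alone at 4 Gy (open red circles) and IgG (blue squares), ordered by the anti-PD-1 value. For Rbbp8 the values are −1.20 with all anti-PD-1 libraries, −0.77 with replicate 1 alone and 0.05 with IgG.

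The difference between the arms was itself called for 4 of the 42 genes, all lower with anti-PD-1, where 5.32% of all genes were called lower, 3.76% higher and 9.08% in either direction. Rbbp8 differed by −1.24 ± 0.31 (adjusted p = 0.0398), Chek1 by −1.22 ± 0.33 (adjusted p = 0.0444), Rad51ap1 by −1.21 ± 0.35 (adjusted p = 0.0472) and Chek2 by −0.90 ± 0.24 (adjusted p = 0.0426). With replicate 1 alone these differences were −0.82, −0.76, −0.71 and −0.64, with adjusted p between 0.303 and 0.317. Of the single libraries left out in turn, anti-PD-1 replicate 1 at 4 Gy gave 13 calls, IgG replicate 2 at 0 Gy gave 9, IgG replicates 1 and 3 at 8 Gy gave 1 and 3, and any other gave 0. In unirradiated lungs these 4 genes lay 0.37 to 0.63 higher with anti-PD-1, none of them called, with Rbbp8 at 57.2 and 72.2 CPM with anti-PD-1, against 37.3, 46.6 and 41.1 CPM with IgG (0.63 ± 0.22, adjusted p = 0.304). Set directly against IgG at 4 Gy, anti-PD-1 lungs had Atm, Chek2 and Lig4 lower and Fancc and the ubiquitin ligase gene Rnf8 higher, 5 of 42, where 8.57% of all genes were lower, 6.90% higher and 15.5% called. Fancc had 23.9, 27.1 and 23.6 CPM with anti-PD-1, against 17.6 and 12.7 CPM with IgG (0.71 ± 0.23, adjusted p = 0.0478), and its overlapping gene Aopep was higher as well (0.76 ± 0.22, adjusted p = 0.0419). Rnf8, which starts the ubiquitin marks around a break, had 23.8, 32.8 and 35.2 CPM with anti-PD-1, against 20.4 and 17.9 CPM with IgG (0.65 ± 0.20, adjusted p = 0.0468). Exons of Rnf8 overlap those of Gm28043 on the same strand, so reads may be shared there even if strand was used. With replicate 1 as the lone anti-PD-1 library at 4 Gy, Fancc lay at 0.66 ± 0.32 (adjusted p = 0.655) and Rnf8 at 0.31 ± 0.25 (adjusted p = 0.682), and Atm, Chek2 and Lig4 lay between −0.35 and −0.27, none of them called. Of single libraries left out, anti-PD-1 replicate 1 at 4 Gy gave 19 calls, IgG replicates 2 and 3 at 0 Gy gave 7 and 5, IgG replicates 1 and 3 at 8 Gy gave 1 each, and any other gave 0.

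At 8 Gy against 4 Gy, 19 of the 42 repair genes were called higher and 1 lower, where 17% of all genes were higher, 17.2% lower and 34.3% called. The median was 0.36, against 0.06 over all genes. By role the higher genes were 5 of 6 for resection and dissolution, 4 of 5 for the damage kinases, 3 of 6 for end joining, 4 of 12 for homologous recombination, 2 of 9 for the Fanconi pathway and 1 of 4 for break-site chromatin. Both this comparison and the one above use the 4 Gy libraries, so they share those samples. Without anti-PD-1 replicates 2 and 3 at 4 Gy, which left replicate 1 alone in that group, the median was 0.20. In that setting Brca1 lay at 0.44, Lig4 at 0.60, Rad50 at 0.42, Xrcc4 at 0.53 and Fancc at −0.70. The count of 20 was 6 without IgG replicate 2 and 13 without IgG replicate 1 at 4 Gy.

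Rad50, Lig4 and Fancc were the 3 genes called in every alternative. Rad50 had a lowest, median and highest value of 37.4, 39.7 and 43.2 CPM at 8 Gy, against 28, 27.3 and 23.1 CPM with anti-PD-1 and 33 and 29.6 CPM with IgG at 4 Gy. Every 8 Gy library was above every 4 Gy library, which 6.06% of all genes were (6.60% lay wholly below, and 0 of the 42), and the difference was 0.47 ± 0.09 (adjusted p = 0.00254). Lig4 had 10.1, 11.2 and 13 CPM at 8 Gy, against 6.37, 5.02 and 2.91 CPM with anti-PD-1 and 8.60 and 7.92 CPM with IgG at 4 Gy. It too did not overlap, and at 0.82 ± 0.17 (1.76-fold, adjusted p = 0.00331) it had the largest rise of the 42 in this comparison. Xrcc4, the partner of the ligase, and Xrcc6 were the other 2 without overlap, at 0.55 ± 0.15 (adjusted p = 0.0119) and 0.23 ± 0.09 (adjusted p = 0.0597).

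Of the rest, Rbbp8 had 42.1, 58.2 and 64.2 CPM as lowest, median and highest at 8 Gy, above the 4 Gy values except that of 1 IgG library at 49.7 CPM (0.66 ± 0.15, adjusted p = 0.00500). Mre11a, the nuclease of MRN, had 32.5, 38.9 and 44.7 CPM at 8 Gy, against 28.4, 26.5 and 23.6 CPM with anti-PD-1 and 32.8 and 29.1 CPM with IgG at 4 Gy (0.42 ± 0.10, adjusted p = 0.00740). Chek2 had 14.8, 17.5 and 19.0 CPM at 8 Gy and was higher by 0.44 ± 0.11 (adjusted p = 0.0104), and Brca1 by 0.57 ± 0.15 (adjusted p = 0.0116). Each of these overlapped the 4 Gy range through IgG libraries. Atm (0.60 ± 0.16, adjusted p = 0.0130), Fancd2 (0.48 ± 0.15, adjusted p = 0.0225), Chek1 (0.47 ± 0.16, adjusted p = 0.0331) and Xrcc5 (0.41 ± 0.15, adjusted p = 0.0440) were higher too, while Rad51ap1 (0.20 ± 0.16), Prkdc (0.18 ± 0.18) and Trp53bp1 (−0.09 ± 0.10) were not called. The remaining genes called higher were Blm, the helicase gene of dissolution, at 0.63, Nbn at 0.49, Bard1, the partner of Brca1, at 0.43, Fanci and the recombination gene Rad51b at 0.40 each, Brca2 and Rnf168 at 0.39 each and Topbp1 at 0.37.

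Fancc went the other way: it had a lowest, median and highest value of 9.15, 10.6 and 16.3 CPM at 8 Gy, against 23.9, 27.1 and 23.6 CPM with anti-PD-1 and 17.6 and 12.7 CPM with IgG at 4 Gy (−0.73 ± 0.15, adjusted p = 0.00324). Aopep on the other strand was lower too (−0.74 ± 0.15, adjusted p = 0.00297).

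Within the anti-PD-1 arm 24 of the 42 were higher at 8 Gy than at 4 Gy and 2 lower, Fancc and Rnf8, where 24.4% of all genes were higher, 17.5% lower and 41.8% called, and all 6 resection genes and the 5 genes grouped as damage kinases were among the 24, with Prkdc not called (0.47 ± 0.25, adjusted p = 0.137). With replicate 1 alone at 4 Gy, 0 were called in that arm, and 17 were without replicate 3. With IgG 0 of the 42 were called by limma, 2 had an unadjusted p below 0.05 (Fancc and Rad50), and 7.58% of all genes were called. The difference between the arms was called for 0 of the 42 and 0% of all genes. At an unadjusted p below 0.05 there were 15 of the 42, a count without the share of all genes beside it. Mitosis genes were higher at 8 Gy than at 4 Gy for 19 of 26, and markers of lung epithelium and endothelium were lower for 12 of 12 alveolar type 1, 11 of 13 alveolar type 2, 16 of 17 club cell, 15 of 15 ciliated and 18 of 20 endothelial markers. Alveolar type 1 markers summed to 321 to 792 CPM at 8 Gy, against 1392 to 1869 CPM at 4 Gy, endothelial markers to 286 to 520 CPM at 8 Gy, against 755 to 1477 CPM at 4 Gy, and club cell markers to 1145 to 6798 CPM at 8 Gy, against 8073 to 24080 CPM at 4 Gy. Without the 2 libraries that lay apart, 14 of the 26 mitosis genes were called higher, and 11 of 12 alveolar type 1 and 14 of 20 endothelial markers lower. Their part in the result was not tested.

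Over all doses, anti-PD-1 against IgG changed 0 of the 42 repair genes by limma, with 5 at an unadjusted p below 0.05, and 0.234% of all genes were called. The 5 were Fancc at 0.42 ± 0.13 (adjusted p = 0.105), Fanca at 0.38 ± 0.14 (adjusted p = 0.171), Rnf8 at 0.28 ± 0.11 (adjusted p = 0.202), Nbn at −0.27 ± 0.12 (adjusted p = 0.228) and Lig4 at −0.36 ± 0.14 (adjusted p = 0.189). The median was 0.02, and the 95% interval ended below a 1.5-fold rise for 40 of the 42 and above a 1.5-fold fall for 41. Among unirradiated lungs alone 0 were called and 5 had an unadjusted p below 0.05, against 0.274% of all genes called. Among 8 Gy lungs 0 were called and 2 had an unadjusted p below 0.05, against 0.00570% of all genes called. There 39 of the 42 lay higher with anti-PD-1, with a median of 0.16, against 0.10 over all genes.

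A wider list of 74 other genes of double-strand break repair was counted in the same way. At 8 Gy against 0 Gy 1 rose and 11 fell, 14.9% of the 74, where 16.1% of all genes fell. The one that rose was Rmi2, a subunit of the BLM dissolution complex, at 0.88 ± 0.19 (adjusted p = 0.00688), and those with the lowest p among the falls were the helicase gene Rtel1 at −0.58, the end joining polymerase gene Polm at −0.72, the topoisomerase gene Top3a at −0.56, Rad52 at −0.59 and the acetyltransferase gene Kat5 at −0.40. At 4 Gy 1 rose, again Rmi2 at 0.81 ± 0.21 (adjusted p = 0.0236), and 13 fell (17.6%, where 12.2% of all genes did), led by the end-processing nuclease gene Dclre1c at −0.76 ± 0.19 (adjusted p = 0.0216), Lig3 at −0.47, Rtel1 at −0.42 and Kat5 at −0.34. At 8 Gy against 4 Gy 21 were higher (28.4%, where 17% of all genes were) and 4 lower (5.41%, against 17.2%), with Usp1, the enzyme that removes ubiquitin from FANCD2, at 0.75 ± 0.16 (adjusted p = 0.00377), Sfr1 at 0.49, Rad18 at 0.80, Wrn at 0.73 and Polm at −0.56. With anti-PD-1 against IgG 0 were called and 10 had an unadjusted p below 0.05. Without the 2 libraries that lay apart, the counts at 4 Gy against 0 Gy were 0 and 0 of 73 genes tested, and at 8 Gy against 4 Gy 3 higher and 1 lower.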

How the data were processed

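RNA from HKP1-bearing lungs was made into libraries with the Illumina TruSeq RNA kit from 1 µg of total RNA, per the labels' protocols. STAR, Partek and mm10 are named in the submitters' processing notes, without versions, counting method or strand setting. The authors deposited CPM per gene and library, with 0.0001 added to each value. Whole reads could not be recovered from these, so no count test was run, and 3 reads are worth at most 0.125 CPM, for counting error only.

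Genes with at least 1 CPM in at least 2 libraries were kept, 17546 of 30095. log2(CPM + 0.5) was fitted with limma 3.58.1 in R 4.3.3, with trend and robust variance, as 6 group means over all 16 libraries, and p-values were Benjamini-Hochberg adjusted over all genes. Fold changes on this scale understate those of low genes.

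Library values were given for Brca1, Rad51ap1, Fancd2, Atm, Chek1, Prkdc, Xrcc5 and Trp53bp1 and for up to 6 called genes per direction and comparison with the lowest p. Genes named outside this rule were chosen after their values were seen. The 42 genes and all lists were chosen with earlier results of these data known. Gene spans are mm10 from the deposited table. Alternatives changed scaling, filter, pseudocount, samples and model.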

Additional observations from a re-analysis of the deposited data

Results flagged for a closer look

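Rad51c in anti-PD-1 replicate 2 at 0 Gy had 2.41 CPM, against 3.14 to 3.16 CPM in the other 4 libraries of that dose, a gap of 0.98 of the whole range. Rnf168, a ubiquitin ligase gene of break-site chromatin, had 16.4 CPM in IgG replicate 1 at 8 Gy, against 21 to 23 CPM in the other 5, a gap of 0.73 of the range. Of 126 sets of libraries of 1 gene and dose, these 2 stood out, and chance would give 1 in 20, or 6.30.

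The change at 4 Gy against 0 Gy differed between anti-PD-1 and IgG for Chek1 (−1.22, adjusted p = 0.0444), Chek2 (−0.90, adjusted p = 0.0426), Rad51ap1 (−1.21, adjusted p = 0.0472) and Rbbp8 (−1.24, adjusted p = 0.0398) by limma. These are 4 of 42 genes, 9.52%, where 9.08% of all genes were called for this difference. Without anti-PD-1 replicates 2 and 3 at 4 Gy the adjusted p of these lay between 0.303 and 0.317.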

How the results depend on the processing

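In the comparisons over both antibodies or over all doses, no called gene changed direction under any alternative. Changes of direction were not counted for the comparisons within arms or for the antibody differences. At 8 Gy against 0 Gy, setting library medians equal gave 5 calls, against 3. At 4 Gy against 0 Gy, quantile normalization gave 7, medians equal 5, the additive model 6, and the compared groups alone 0, against 11. Leaving out anti-PD-1 replicates 2 and 3 at 4 Gy gave 0 at 4 Gy against 0 Gy, 5 at 8 Gy against 4 Gy, and 0 within anti-PD-1 for both. Fitting the compared groups alone gave 0 at 8 Gy against 0 Gy with IgG, 11 at 4 Gy against 0 Gy with anti-PD-1 and 1 at 8 Gy against 4 Gy with IgG. In the antibody contrast at 4 Gy, no filter, the compared groups alone and omission of the 2 libraries each gave 0, and for the antibody difference in the 4 Gy change, no filter and that omission gave 0. The shares of all genes called in these runs are not given here, so whether the shifts were particular to the repair genes cannot be read from these counts. The cause was not tested.

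Leaving out 1 library at a time gave 2 to 4 calls at 8 Gy against 0 Gy, 0 to 21 at 4 Gy against 0 Gy, 6 to 27 at 8 Gy against 4 Gy and 0 to 1 for anti-PD-1 against IgG. Within arms it gave 0 to 3 at 8 Gy against 0 Gy with IgG, 3 to 26 at 4 Gy against 0 Gy with anti-PD-1, 0 to 1 at 8 Gy against 4 Gy with IgG and 17 to 32 with anti-PD-1. It gave 0 to 19 for the antibody contrast at 4 Gy, and 0 to 13 and 0 to 14 for the antibody difference in 4 Gy against 0 Gy and in 8 Gy against 4 Gy. For the other comparisons it gave 0. The 1 call for anti-PD-1 against IgG was Fancc, without IgG replicate 3 at 0 Gy.

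Replicate numbers gave no clear sign of pairing. Deviations from the group means were correlated for 36 pairs with the same number. Of these 11 lay above 0.1, with a median of −0.101 and a range from −0.546 to 0.442. In groups of 2 libraries the deviations mirror each other, so this check cannot exclude pairing. The replicate block gave 3 calls at 8 Gy against 0 Gy, 9 at 4 Gy against 0 Gy, 19 at 8 Gy against 4 Gy, 0 for anti-PD-1 against IgG, and 0 both for that contrast at 4 Gy and for the antibody difference in the 4 Gy change.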
